A study of Mus musculus with 6 samples.

Results

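The genes described here encode interleukin-1 (IL-1) family cytokines, their antagonist and receptors, and the inflammasome that matures them. All 10 were found by symbol among the 21684 genes of the table: the ligand genes Il1b, Il1a and Il18, the antagonist gene Il1rn, the receptor genes Il1r2 and Il1rap, and the inflammasome genes Nlrp3, Pycard, Casp1 and Gsdmd. RNA sequencing had been done on primary haematopoietic cells from mouse bone marrow, 3 libraries transduced with RUNX1-RARA and 3 with an empty vector. RUNX1 is a DNA-binding regulator of haematopoiesis and RARA a nuclear receptor for retinoic acid, and the fusion carries parts of both. Both groups were transduced, differ in genotype label only, and carry no further allele or agent in the labels. The promoter driving the fusion, the strain and age of the mice, and any pooling of animals are not stated in the sources used here.

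IL-1 alpha and IL-1 beta signal through the receptor encoded by Il1r1, which recruits the accessory protein IL1RAP, and the receptor antagonist and the decoy receptor IL1R2 limit that signal. IL-1 beta and IL-18 are made as inactive precursors. In the NLRP3 inflammasome the sensor NLRP3 binds the adaptor ASC, the product of Pycard, which activates caspase-1; caspase-1 cleaves both precursors and gasdermin D, whose fragment forms the membrane pore through which they leave the cell. Neutrophils, monocytes and macrophages are known as main sources of these transcripts in the bone marrow.

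Values are FPKM (fragments scaled by gene length and by library size) as the authors deposited them, so levels of different genes can be set side by side. The estimated depth was 26.65 to 40.65 M reads in RUNX1-RARA libraries and 33.15 to 89.75 M reads in empty vector libraries. Genes that reached 1 FPKM in 3 libraries or more were tested with limma on log2(FPKM + 1), with p-values adjusted over all 10901 tested genes. Over these genes the median log2 fold change was 0.11, and Pearson's r was at least 0.996 within groups and at most 0.857 between them. The mouse Runx1 and Rara genes, which need not capture the fusion, lay at 21.7 to 22.2 and 13.7 to 16.8 FPKM in RUNX1-RARA libraries, against 16.7 to 18.7 and 11.0 to 13.5 FPKM in empty vector libraries. All 6 haematopoietic markers, among them Ptprc and Spi1, were above 10 FPKM in every library.

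RUNX1-RARA cells held less RNA of most of these genes. Of the 10 members, 9 reached the filter and all 9 were lower in RUNX1-RARA cells at an adjusted p under 0.05, where 31.7% of all tested genes were called lower, 46% higher and 77.7% in either direction. That excess of higher calls was absent after TMM scaling (4132 higher, 4138 lower) and median-of-ratios scaling (4081 higher, 4187 lower), and the 9 genes were called lower under both. In those 9 genes the groups did not overlap, as was the case for 79.1% of tested genes. Il18 reached the filter only through the empty vector libraries, so its call is a description, and the other 8 were above 1 FPKM in every library. The falls were graded: Il1r2 and Il1b fell most, and Casp1 and Nlrp3 least. The median log2 fold change of the 9 was -1.19. In these bulk samples, fewer cells of a type and less RNA per cell cannot be told apart.

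**Figure D1:**
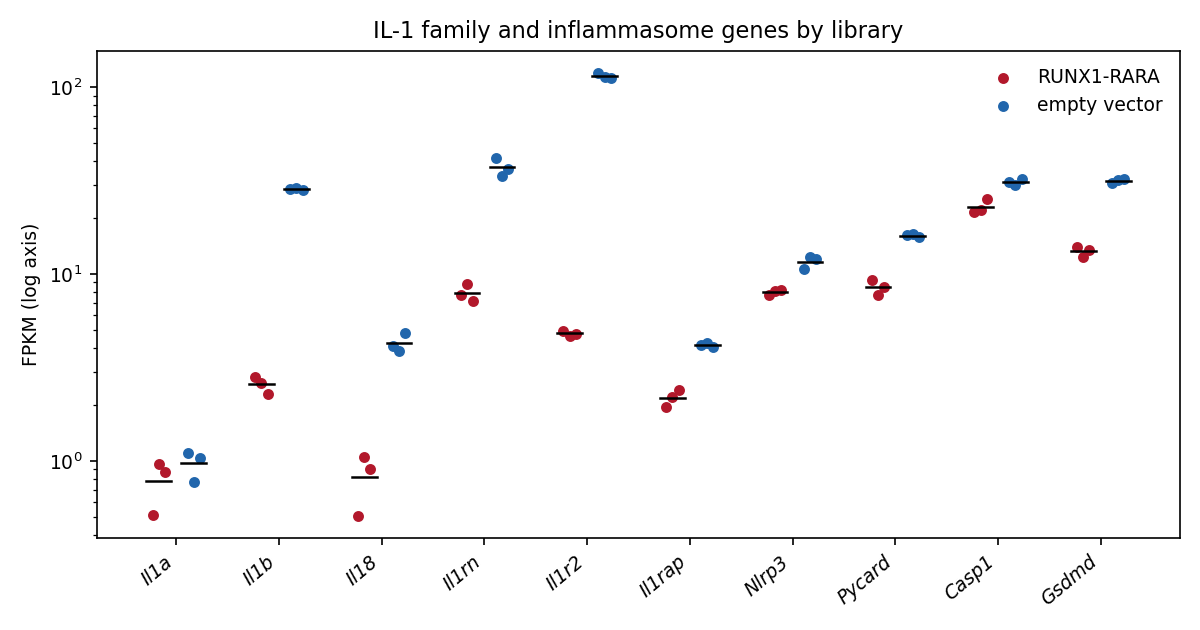
FPKM (log axis) of the 10 genes in each library, RUNX1-RARA left of empty vector, with a bar at the mean of 3 libraries. The groups are apart for 9 genes and overlap for Il1a, and the gap is widest for Il1r2, with 4.67 to 4.97 FPKM in RUNX1-RARA and 112 to 119 FPKM in empty vector libraries.

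Il1b (ENSMUSG00000027398, chr2:129364570-129371139 on mm10, minus strand) encodes IL-1 beta. It had 2.81, 2.61 and 2.29 FPKM in the RUNX1-RARA libraries, against 28.4, 28.9 and 28.2 FPKM in the empty vector libraries. Every empty vector library was above every RUNX1-RARA library, and the spread within each group was small beside the gap. The log2 fold change was -3.05 (SE 0.0645, limma adjusted p = 3.67e-11), and 1.61% of all tested genes fell as far or further.

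Il1a (ENSMUSG00000027399, chr2:129299610-129309972, minus strand) is the next gene of the table to Il1b and encodes IL-1 alpha, which signals also as a precursor. It stood at 0.513, 0.965 and 0.872 FPKM in RUNX1-RARA libraries and at 1.11, 0.769 and 1.04 FPKM in empty vector libraries. The groups overlapped and the gene was too low for the filter. Without the filter its log2 fold change was -0.15 (SE 0.113, limma adjusted p = 0.303), which does not show that the groups were alike. These levels rest on an estimated 27.0 to 70.0 reads in RUNX1-RARA libraries and 61.9 to 196 reads in empty vector libraries.

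The 250 bases before the RefSeq start of Il1b, of Il1a and of Il18 are printed because Il1b and Il1a are neighbours of which Il1b was called lower and Il1a was below the filter, and Il18 is the single member with the letters of a RUNX motif in this window. The build is GRCm38.p6, the strand is that of the gene, and capitals mark the motif letters found on either strand.
Il1b, chr2:129371140-129371389, minus strand: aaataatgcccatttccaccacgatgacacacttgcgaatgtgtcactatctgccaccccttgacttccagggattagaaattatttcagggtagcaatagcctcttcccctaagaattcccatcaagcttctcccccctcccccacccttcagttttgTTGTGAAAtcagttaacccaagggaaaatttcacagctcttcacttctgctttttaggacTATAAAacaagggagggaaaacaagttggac
Il1a, chr2:129309973-129310222, minus strand: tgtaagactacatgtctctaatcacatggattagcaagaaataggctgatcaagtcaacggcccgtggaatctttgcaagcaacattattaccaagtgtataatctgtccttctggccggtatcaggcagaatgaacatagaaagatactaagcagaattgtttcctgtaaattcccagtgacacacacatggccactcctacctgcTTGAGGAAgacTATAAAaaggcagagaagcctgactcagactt
Il18, chr9:50554450-50554699, plus strand: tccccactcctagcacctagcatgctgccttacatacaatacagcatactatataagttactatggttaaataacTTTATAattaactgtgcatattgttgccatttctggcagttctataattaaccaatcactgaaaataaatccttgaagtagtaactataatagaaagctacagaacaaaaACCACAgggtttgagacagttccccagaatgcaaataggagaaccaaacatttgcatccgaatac

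The motifs searched were NF-kB (GGG and CC with any 5 bases between), C/EBP (TTNNGNAA), RUNX (TGTGGT), the retinoic acid receptor motif (AGGTCA), PU.1 (GAGGAAGT) and the TATA box (TATAAA), the last added after the windows were seen. Il1b and Il1a each had a TATA box, starting 31 and 32 bases before the gene start, and each had a single C/EBP match, starting 91 and 43 bases before it. The Il18 window had the RUNX letters on its opposite strand, and a TATA match starting 175 bases before the gene start, also on the opposite strand. RefSeq windows were found for 9 of the 10 members (12 windows), and Gsdmd was the one not matched. An NF-kB match lay in windows of 4 of these 9 genes and a C/EBP match in 5, where 45.8% and 36.8% of all 32851 windows held them. The RUNX, retinoic acid, PU.1 and TATA letters lay in windows of 1, 1, 1 and 3 members, and in 14%, 14%, 2.44% and 12.4% of all windows. A member counted if any of its windows held a match, and Il1rn and Nlrp3 have several windows, while the shares are per window. The member counts and the shares are therefore unlike measures. NF-kB matches overlapped each other in Il1rap and Nlrp3 and C/EBP matches in Il1rn. A match describes letters only.

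Il18 (ENSMUSG00000039217, chr9:50554827-50581840) encodes IL-18, the second cytokine that caspase-1 matures. It had 0.509, 1.05 and 0.906 FPKM in the RUNX1-RARA libraries, against 4.13, 3.85 and 4.82 FPKM in the empty vector libraries. The groups did not overlap, and RUNX1-RARA replicate 1 was the lowest library, with an estimated 14.0 reads. The log2 fold change was -1.54 (SE 0.112), and the ratio of mean FPKM was 5.20-fold lower. Il18 reached the filter only through the empty vector libraries, which favours a lower value in RUNX1-RARA cells, so its fold is a description.

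The members Il1r2 and Il1rn, whose products restrain IL-1, fell as well, and Il1r2 had the largest change of the tested members. Il1r2 (ENSMUSG00000026073, chr1:40074079-40125231) encodes the decoy receptor, which binds IL-1 without signalling. It had 4.97, 4.67 and 4.80 FPKM in RUNX1-RARA libraries, against 119, 113 and 112 FPKM in empty vector libraries. The mean was 23.8-fold lower, and the log2 fold change was -4.31 (SE 0.0522, limma adjusted p = 9.63e-13), and 0.605% of tested genes fell as far or further.

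Il1rn (ENSMUSG00000026981, chr2:24336853-24351494) encodes the receptor antagonist, which occupies the IL-1 receptor without activating it. Its levels were 7.71, 8.84 and 7.19 FPKM in RUNX1-RARA libraries and 41.8, 33.6 and 36.3 FPKM in empty vector libraries. The lowest empty vector library was well above the highest RUNX1-RARA library. The log2 fold change was -2.10 (SE 0.0897, limma adjusted p = 8.16e-09), 4.71-fold lower in mean FPKM.

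Il1rap (ENSMUSG00000022514, chr16:26581704-26730117), the gene of the accessory chain shared by the IL-1, IL-33 and IL-36 receptors, changed less. It had 1.943, 2.202 and 2.399 FPKM in RUNX1-RARA libraries, against 4.17, 4.27 and 4.08 FPKM in empty vector libraries. The groups did not overlap, and the fall was 1.91-fold in mean FPKM (log2 fold change -0.70, SE 0.0674, limma adjusted p = 4.52e-06).

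The 4 inflammasome genes fell by smaller steps than the cytokine gene Il1b. Of the other cytokine genes, Il18 has a fold that is only a description, and Il1a overlapped between the groups. Nlrp3 (ENSMUSG00000032691, chr11:59541568-59566956), the sensor, had 7.72, 8.05 and 8.17 FPKM in RUNX1-RARA libraries, against 10.66, 12.25 and 12.03 FPKM in empty vector libraries. The groups lay close together without overlapping, and the fall was 1.46-fold (log2 fold change -0.49, SE 0.0639, limma adjusted p = 4.55e-05). Pycard (ENSMUSG00000030793, chr7:127989708-127993867), the gene of the adaptor ASC, had 9.22, 7.69 and 8.56 FPKM in RUNX1-RARA libraries, against 16.1, 16.3 and 15.8 FPKM in empty vector libraries. That was a 1.89-fold fall (log2 fold change -0.85, SE 0.0663, limma adjusted p = 9.34e-07), and no RUNX1-RARA library reached an empty vector library.

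Casp1 (ENSMUSG00000025888, chr9:5298517-5307265), the gene of the protease, changed least of the tested members. It had 21.5, 22.1 and 25.1 FPKM in RUNX1-RARA libraries, against 31.1, 29.9 and 32.3 FPKM in empty vector libraries (log2 fold change -0.43, SE 0.0663, limma adjusted p = 1.72e-04). Gsdmd (ENSMUSG00000022575, chr15:75862327-75867408), which encodes the pore protein, had 13.9, 12.4 and 13.5 FPKM in RUNX1-RARA libraries, against 30.7, 31.7 and 32.4 FPKM in empty vector libraries. Its fall was 2.38-fold (log2 fold change -1.19, SE 0.0576, limma adjusted p = 2.11e-08), and both genes kept the groups apart. When libraries were rescaled to equal sums without mitochondrially encoded genes, which held 21.9% to 26.3% of the FPKM sum in RUNX1-RARA and 7.96% to 10.6% in empty vector libraries, the log2 fold changes shrank to -0.17 for Casp1 (adjusted p = 0.0319, and 2.99e-05 to 0.0319 over all settings) and -0.25 for Nlrp3 (adjusted p = 0.00368, and 7.05e-06 to 0.00368), and the median of all tested genes moved up by 0.24.

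**Figure D2:**
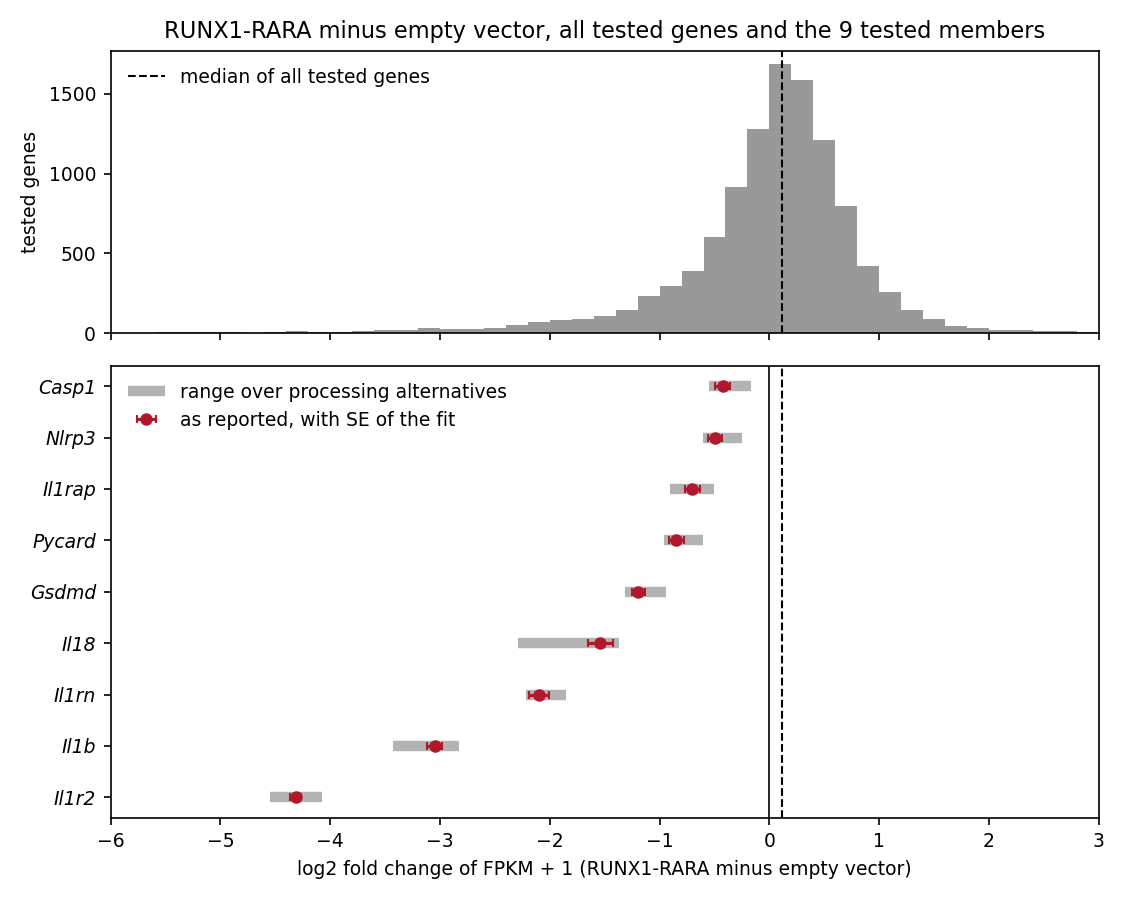
Top, number of tested genes by log2 fold change of FPKM + 1 (RUNX1-RARA minus empty vector), with a dashed line at the median of 0.11; 12 genes lie below and 24 above the plotted range. Bottom, the 9 tested members with the SE of the fit, over grey bars that span the values under all processing alternatives; every bar stays below 0, from Il1r2 at -4.31 to Casp1 at -0.43.

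The falls were unequal, and the order of levels differed between the groups. In RUNX1-RARA libraries Casp1 stood highest (22.9 ± 1.94 FPKM, SD, n = 3), then Gsdmd (13.2 ± 0.78 FPKM), and then Pycard (8.49 FPKM), Nlrp3 (7.98 FPKM) and Il1rn (7.91 FPKM), whose ranges overlapped from one to the next. Il1r2 followed, then Il1b and Il1rap, which overlapped, and at the bottom Il18 (0.82 FPKM) and Il1a (0.783 FPKM), which overlapped too. In empty vector libraries Il1r2 stood highest (115 ± 3.86 FPKM, SD, n = 3), then Il1rn (37.2 ± 4.18 FPKM), Gsdmd and Casp1 (31.6 and 31.1 FPKM, overlapping), Il1b (28.5 FPKM), Pycard, Nlrp3, Il18 and Il1rap (4.26 and 4.17 FPKM, overlapping) and Il1a (0.971 FPKM). Together the 10 genes held 0.0172% ± 0.000742 of the FPKM sum in RUNX1-RARA libraries and 0.0664% ± 0.00146 in empty vector libraries (SD, n = 3 each; two-sided exact permutation test p = 0.1, the smallest that 3 against 3 allows).

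Ratios within a library do not depend on how libraries are scaled. The ratio of Il1r2, the decoy, to Il1r1, the signalling receptor, was 0.596, 0.53 and 0.565 in RUNX1-RARA libraries, against 49.9, 51.1 and 45.2 in empty vector libraries, so the decoy transcript was the less abundant one in every RUNX1-RARA library and the more abundant one in every empty vector library. The ratio of Il1rn to Il1b, antagonist to agonist, was 2.74, 3.38 and 3.14 in RUNX1-RARA libraries, against 1.47, 1.16 and 1.29 in empty vector libraries. Both transcripts were lower with the fusion, and the antagonist exceeded the agonist in every library.

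The ratio of Il1a to Il1b was 0.183, 0.369 and 0.381 in RUNX1-RARA libraries, against 0.039, 0.0266 and 0.0368 in empty vector libraries. That of Il1b to Il18 was 5.52, 2.50 and 2.53 in RUNX1-RARA libraries, against 6.88, 7.53 and 5.86 in empty vector libraries, with RUNX1-RARA replicate 1 close to the empty vector range. Gsdmd to Casp1 averaged 0.581 ± 0.0568 in RUNX1-RARA and 1.02 ± 0.0393 in empty vector libraries, and Pycard to Nlrp3 1.07 ± 0.121 and 1.38 ± 0.11 (SD, n = 3 each). In all 6 ratios the groups did not overlap, and each had a two-sided exact permutation p of 0.1, the smallest possible with 3 against 3, and 0.1 after adjustment over the 6 ratios.

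**Figure D3:**
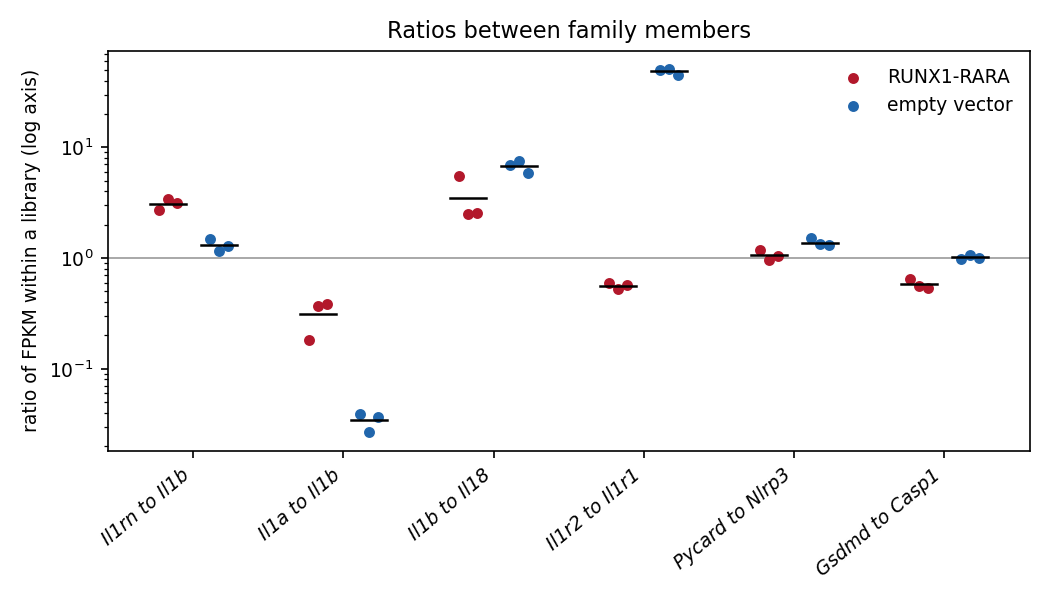
Ratio of FPKM within each library (log axis) for 6 pairs of genes, RUNX1-RARA left of empty vector, with a bar at the mean of 3 libraries and a grey line at a ratio of 1. The Il1r2 to Il1r1 ratio lies near 0.56 in RUNX1-RARA and near 48.7 in empty vector libraries.

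The rest of the IL-1 family did not fall as a block. Of 15 other ligand, receptor and binding protein genes, 8 were tested, of which 5 were higher and 3 lower in RUNX1-RARA cells (median log2 fold change 0.43, against 0.11 over all tested genes). Of all tested genes, 46% were called higher and 31.7% lower, and the list was not tested against those shares. The signalling receptor gene Il1r1 rose 3.62-fold, with 8.34, 8.81 and 8.48 FPKM in RUNX1-RARA libraries, against 2.39, 2.22 and 2.47 FPKM in empty vector libraries (log2 fold change 1.51, SE 0.0585, limma adjusted p = 3.77e-09). Both IL-18 receptor chains rose, Il18r1 to 20.8 ± 0.826 FPKM in RUNX1-RARA libraries, against 10.9 ± 0.998 FPKM in empty vector libraries, and Il18rap to 72.9 ± 2.43 FPKM in RUNX1-RARA libraries, against 47.9 ± 2.47 FPKM in empty vector libraries (SD, n = 3 each; log2 fold changes 0.87 and 0.60). Sigirr, an inhibitory receptor of the family, rose 2.10-fold (log2 fold change 0.89). The limma adjusted p was 9.17e-07 for Il18r1, 4.56e-06 for Il18rap and 2.84e-07 for Sigirr.

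IL-36 gamma and its receptor moved the other way. Il36g had 0.114, 0.611 and 0.522 FPKM in RUNX1-RARA libraries, against 61.4, 61.2 and 58.3 FPKM in empty vector libraries. The mean was 145-fold lower (log2 fold change -5.45, SE 0.118), and the gene reached the filter only through the empty vector libraries. Il36g therefore had to be lower in RUNX1-RARA cells, and its fold is a description. An estimated 5.01 to 35.0 reads lay behind its level in RUNX1-RARA libraries, so the size of the fold is not precise. Il1rl2, which encodes the IL-36 receptor, fell 5.02-fold, to 2.45 ± 0.192 FPKM in RUNX1-RARA libraries, against 12.3 ± 0.502 FPKM in empty vector libraries (SD, n = 3 each). Il18bp, which encodes the soluble IL-18 inhibitor, was 1.75-fold lower (log2 fold change -0.61, limma adjusted p = 1.18e-04), and for Il1rl2 the adjusted p was 1.02e-09. Il36a, Il36b and Il33 were at 0 in all RUNX1-RARA libraries and under 0.1 FPKM in empty vector libraries, and Il1rapl1, Il1rapl2, Il36rn and Il1f10 were listed at 0 in all 6 libraries.

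The receptor genes sit side by side on chromosome 1, with no other gene of the table between them, in the order Il1r2, Il1r1, Il1rl2, Il1rl1, Il18r1 and Il18rap over 478 kb (chr1:40074079-40551705). Neighbours in this row differed in direction: Il1r2 fell, Il1r1 rose, Il1rl2 fell, and the last 3 rose. Il1rl1, the gene of the IL-33 receptor, named for its place in the row, had 31.4 ± 2.13 FPKM in RUNX1-RARA libraries, against 25.9 ± 0.407 FPKM in empty vector libraries (SD, n = 3 each; log2 fold change 0.27, SE 0.0587, limma adjusted p = 0.00189). All 6 directions were the same under every scaling tried. On chromosome 2, Il1rn lies beside the IL-36 genes and, apart from them, Il1a beside Il1b, and on chromosome 9 Casp1 is followed by Casp4 and Casp12.

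**Figure D4:**
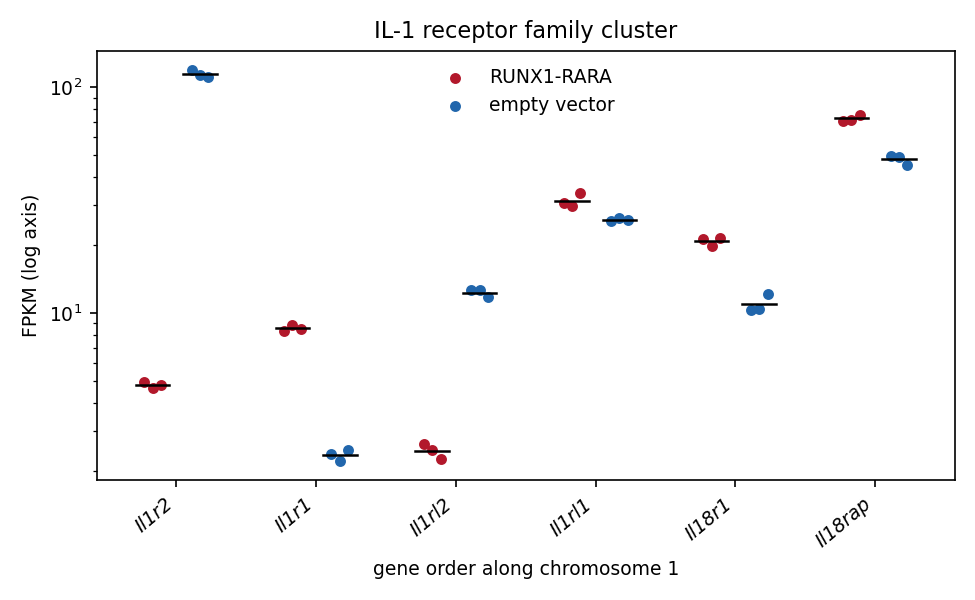
FPKM (log axis) of the 6 receptor genes in their order along chromosome 1, by library, RUNX1-RARA left of empty vector, with a bar at the mean of 3 libraries. RUNX1-RARA libraries are lower for Il1r2 and Il1rl2 and higher for Il1r1, Il1rl1, Il18r1 and Il18rap.

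Among the other inflammasome sensors and regulators, 17 of 21 genes were tested, and 11 were lower, 5 higher and 1 not called in RUNX1-RARA cells (median log2 fold change -0.59). The shares over all tested genes were 31.7% lower and 46% higher. Of the 11 lower genes, 6 reached the filter only through the empty vector libraries, and of the 10 genes above 1 FPKM in every library 5 were lower and 4 higher. Mefv, the gene of the sensor pyrin, had 0.104, 0.111 and 0.106 FPKM in RUNX1-RARA libraries, against 8.08, 8.81 and 8.05 FPKM in empty vector libraries (77.7-fold lower). Nlrc4, the sensor partner of the NAIP proteins, fell 7.16-fold to 0.917 ± 0.0478 FPKM in RUNX1-RARA libraries, against 6.56 ± 0.454 FPKM in empty vector libraries (SD, n = 3 each). P2rx7, the gene of the ATP-gated channel that triggers NLRP3, was 31.2-fold lower, at 0.063 ± 0.0266 FPKM in RUNX1-RARA and 1.96 ± 0.186 FPKM in empty vector libraries. Nlrp12, an inhibitory NLR family gene, was 6.19-fold lower. All 4 are among the 6 genes that reached the filter only through the empty vector libraries, so they had to be lower in RUNX1-RARA cells and their folds are descriptions. Mefv rested on an estimated 9.01 to 14.0 reads and P2rx7 on 6.05 to 22.1 reads in RUNX1-RARA libraries.

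Nlrp10 was 3.94-fold higher, at 1.4997 ± 0.258 FPKM in RUNX1-RARA and 0.381 ± 0.0509 FPKM in empty vector libraries (SD, n = 3 each), having reached the filter only through RUNX1-RARA libraries. Txnip, which encodes a thioredoxin-binding protein known to bind NLRP3, was 1.42-fold higher and Naip5, a sensor of bacterial flagellin, 1.24-fold higher. Given how it reached the filter, Nlrp10 had to be higher in RUNX1-RARA cells, so its fold is a description. The limma adjusted p was 7.91e-06 for Txnip and 3.99e-04 for Naip5. Brcc3, the gene of a deubiquitinase of NLRP3, was 1.21-fold higher (log2 fold change 0.26, limma adjusted p = 0.00637), a call lost after TMM scaling (adjusted p = 0.05917) and median-of-ratios scaling (adjusted p = 0.0675), with adjusted p from 4.265e-05 to 0.0675 over all settings. Aim2, the DNA sensor, named after its values were seen as the one gene not called, had 26.6 ± 1.23 FPKM in RUNX1-RARA and 25.3 ± 2.19 FPKM in empty vector libraries (SD, n = 3 each; log2 fold change 0.07, SE 0.0688, limma adjusted p = 0.367). Other Naip genes, named after their values were seen, went the other way from Naip5. Naip2 was 1.86-fold lower, with means of 15.5 FPKM in RUNX1-RARA and 28.7 FPKM in empty vector libraries. Naip6 was 1.62-fold lower, with 4.40 and 7.12 FPKM, and Naip1 was too low for the filter. The Naip genes and Nlrp1a and Nlrp1b are close copies of each other, so their levels are uncertain.

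Of 8 other caspase and pore genes, 5 were tested, 3 lower, 1 higher and 1 not called (median log2 fold change -0.22). Over all tested genes, 31.7% were called lower and 46% higher. Casp4, the intracellular sensor of bacterial lipopolysaccharide, fell 1.52-fold, to 9.18 ± 0.54 FPKM in RUNX1-RARA libraries, against 14.0 ± 1.08 FPKM in empty vector libraries (SD, n = 3 each; log2 fold change -0.56, limma adjusted p = 2.91e-05). Casp8, an initiator caspase of death receptors, was 1.28-fold higher (limma adjusted p = 3.33e-04). Gsdme, which encodes another pore-forming gasdermin, was 1.22-fold lower (limma adjusted p = 0.00417). That call was lost after rescaling without mitochondrially encoded genes (log2 fold change -0.016, adjusted p = 0.804, and 3.63e-04 to 0.804 over all settings), and the list then had 1 lower gene.

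All 16 listed genes of signalling below the IL-1 and Toll-like receptors reached the filter, and 11 were lower, 1 higher and 4 not called (median log2 fold change -0.29). For comparison, 31.7% of all tested genes were called lower and 46% higher. Myd88, the adaptor of both receptor families, had 23.9, 24.6 and 22.6 FPKM in RUNX1-RARA libraries, against 42.4, 45.1 and 43.8 FPKM in empty vector libraries (log2 fold change -0.86, SE 0.0542, limma adjusted p = 1.70e-07). The kinase genes Irak4 and Irak2 fell 2.05-fold and 2.78-fold, and Peli2, a ubiquitin ligase of the IRAK kinases, 2.52-fold (limma adjusted p at most 1.44e-07 for the 3 genes). Tab1, which encodes an activator of the kinase TAK1, rose 1.84-fold, to 6.40 ± 0.782 FPKM in RUNX1-RARA libraries, against 3.48 ± 0.302 FPKM in empty vector libraries (SD, n = 3 each; limma adjusted p = 2.27e-05). The split is sensitive to scaling: without mitochondrially encoded genes in the sum it was 7 lower and 5 higher.

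Other proteases that can cleave IL-1 family precursors were split, 3 higher and 4 lower of 7 (median log2 fold change -0.27). Calls over all tested genes were split too, with 46% higher and 31.7% lower. The neutrophil serine protease genes Elane and Prtn3 were 9.39-fold and 4.68-fold lower, with 49.7 and 62.2 FPKM in RUNX1-RARA and 467 and 291 FPKM in empty vector libraries. Ctsg, the cathepsin G gene, was 2.44-fold higher, and Gzmb, the gene of granzyme B, 45.3-fold higher. The limma adjusted p of these 4 genes was at most 2.77e-07. Of the calpain genes, whose products cleave the IL-1 alpha precursor, Capn1 was 1.82-fold lower and Capn2 1.33-fold higher (limma adjusted p = 1.24e-06 and 5.16e-05). Capns1, the small subunit, was 1.21-fold lower, a call lost without mitochondrially encoded genes in the sum (log2 fold change -0.0056, adjusted p = 0.943, and 5.98e-04 to 0.943 over all settings).

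**Figure D5:**
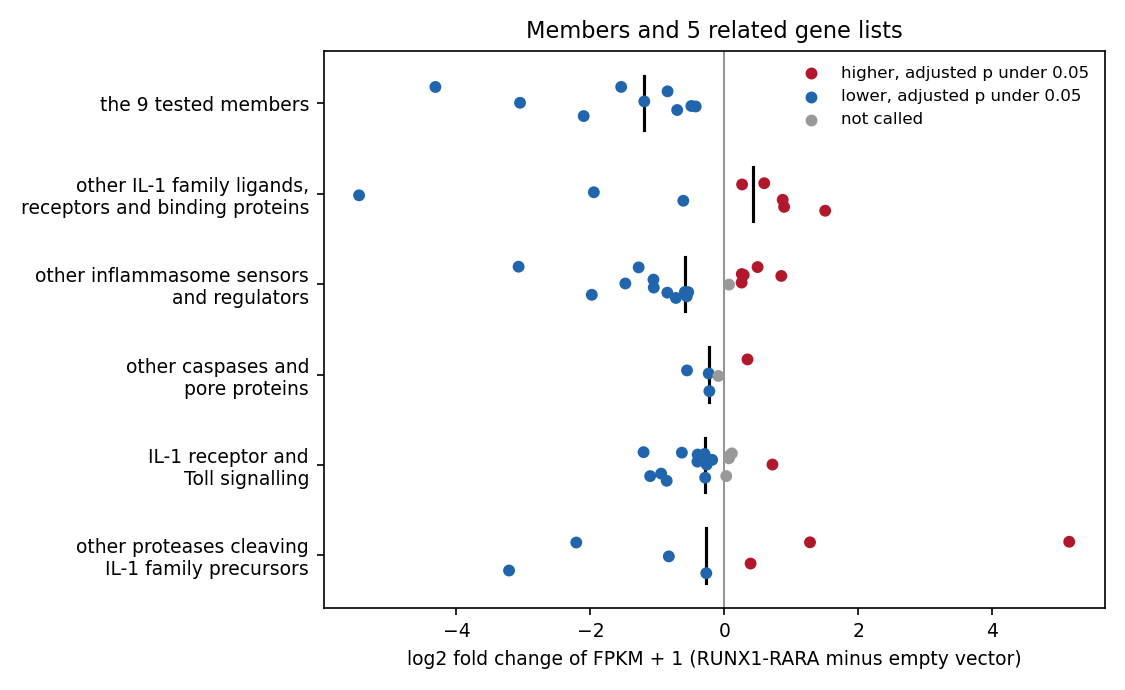
Log2 fold change of FPKM + 1 (RUNX1-RARA minus empty vector) of each tested gene in the group and in 5 related lists, with a bar at the list's median; red genes were higher, blue lower and grey not called. The 9 tested members are all below 0, and each of the 5 related lists has genes on both sides.

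Markers of mature myeloid cells moved with these genes. Of 12 monocyte and macrophage markers 11 were tested and 10 were lower, and their summed level was 636 to 682 FPKM in RUNX1-RARA libraries and 5563 to 6064 FPKM in empty vector libraries. Msr1 was at 0 in 2 of 3 RUNX1-RARA libraries, while Adgre1, named after its values were seen as the marker not called, had 34.5 ± 1.47 FPKM in RUNX1-RARA and 35.8 ± 1.77 FPKM in empty vector libraries (SD, n = 3 each). All 10 mature neutrophil markers were lower, with sums of 2531 to 3087 FPKM in RUNX1-RARA libraries and 56284 to 63329 FPKM in empty vector libraries, and none was at 0 in all libraries of a group. Of 6 dendritic cell markers 4 were tested and all 4 were lower (22.5 to 26.4 FPKM in RUNX1-RARA, 137 to 148 FPKM in empty vector libraries). Of the lower markers, 4 of monocytes and macrophages and 3 of neutrophils reached the filter only through the empty vector libraries. Over all tested genes, 31.7% were called lower. The part of these cell types in the falls was not tested.

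Beside the rising receptor genes, 4 of 5 progenitor markers were tested and all 4 were higher, where 46% of all tested genes were. The sums over the 5 were 358 to 372 FPKM in RUNX1-RARA libraries and 137 to 139 FPKM in empty vector libraries. The marker too low for the filter, Flt3, lay the other way, with means of 0.117 FPKM in RUNX1-RARA and 0.338 FPKM in empty vector libraries. Of 6 mast cell and basophil markers, 2 were higher, 3 lower and 1 not called, with sums of 2702 to 2840 FPKM in RUNX1-RARA libraries and 1732 to 1844 FPKM in empty vector libraries. Most of the RUNX1-RARA sum was Cpa3, with means of 1864 FPKM in RUNX1-RARA and 554 FPKM in empty vector libraries. The lower markers were Fcer1a, Ms4a2 and Prss34, with means of 0.582, 15.8 and 7.21 FPKM in RUNX1-RARA and 57.1, 67.3 and 283 FPKM in empty vector libraries. Of these, Fcer1a reached the filter only through the empty vector libraries. Of 6 T and NK cell markers only Nkg7 was tested, and it was higher; Cd3e, Cd4, Cd8a and Ncr1 were at 0 in every RUNX1-RARA library. The remaining one, Cd3g, had 1.246, 0.984 and 0.673 FPKM in RUNX1-RARA libraries, against 0, 0.096 and 0 FPKM in empty vector libraries, and was too low for the filter. Ms4a1 and Pax5, of 4 B cell markers, were also at 0 in every RUNX1-RARA library, and none of 4 B cell or 4 erythroid markers reached the filter; of 5 stromal and endothelial markers only Pdgfrb did, through RUNX1-RARA libraries. Their part in the rises was not tested.

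The genes whose profile over the 6 libraries lay nearest to that of Il1b, among 8076 candidates, were Klf2 (0.56 FPKM in RUNX1-RARA, 12.2 FPKM in empty vector libraries; Euclidean distance 0.0926 on the mean-centred log2(FPKM + 1) scale), Pira12 (2.19 and 24.8 FPKM; 0.133) and Cotl1 (22.5 and 181 FPKM; 0.147). Nearest to Il1rap were Etfrf1 (6.45 FPKM in RUNX1-RARA, 11.1 FPKM in empty vector libraries; distance 0.0304), Plekhf2 (16.9 and 28.6 FPKM; 0.08) and Tut7 (15.0 and 24.4 FPKM; 0.0826). With only 2 groups of 3 libraries, likeness mostly means a similar difference between the groups.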

How the data were processed

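RNA sequencing of 6 libraries was analysed, 3 RUNX1-RARA and 3 empty vector, grouped by the genotype label. The authors deposited FPKM, per the file headers. Per the submitters' processing notes the tools were HISAT2 2.2.1 and fastp 0.22.0, with featureCounts 2.0.1 and DESeq2 1.32.0, and the builds mm10 and hg38 are named without roles. Annotation, strand setting and treatment of multi-mapped reads are not given in those notes. In GENCODE M21 (GRCm38, that is mm10), the source of coordinates, Il1a, Il1b, Il1rap, Pycard, Il18bp, Nlrp12, Txnip, Irak2, Irak4, Myd88, Prtn3, Capn1, Capn2 and Capns1 share exonic bases with a gene on the opposite strand, and Peli2 and P2rx7 with one on the same strand, so their values are uncertain to that extent.

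Depth was inferred from spacing among low FPKM, of which 80.2% to 84.7% lay within 0.1 of a whole read; many values were not whole, so no count test was run, and only relative depth is firm. By median, squared differences between replicates of a group were 3.14 to 16.5 times those that sampling noise would give. That ratio uses the estimated absolute depth, so its size is rough. No replicates were merged.

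The model was limma 3.58.1 (R 4.3.3) with a group term on log2(FPKM + 1), trended empirical Bayes and Benjamini-Hochberg adjustment at 0.05, checked on simulated data. Differences are RUNX1-RARA minus empty vector; the added 1 makes them understate changes of low genes, and fold values are quotients of mean FPKM. No label ties replicates to separate mice or cultures, so p-values reflect only how far these libraries vary, and that variation may be technical. Single values had exact permutation tests. Pseudocount, filter, scaling (TMM and median-of-ratios factors among them), replicate block and left-out libraries were varied.

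The members and lists were chosen with earlier results of these data known. Beyond the members, the text names up to 4 called genes per direction with the largest change from each of 5 lists, if the higher group averaged 1 FPKM or more, and the 3 nearest profiles to Il1b and Il1rap among tested genes with a mean of at least 5 FPKM in the higher group. Some genes that the rule names are not reported here. Marker genes were named where they were at 0, not called or needed for a sentence on cell types. Promoter windows are from RefSeq on GRCm38.p6.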

Additional observations from a re-analysis of the deposited data

How the results depend on the processing

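All 9 tested members were lower in RUNX1-RARA cells, and none was higher, under each of the 17 alternatives: pseudocounts of 0.1 and 0.5, no filter, 5 scalings, quantile normalization, untrended variances, the replicate block and each library left out. Over these the log2 fold change ran from -4.55 to -4.07 for Il1r2, from -3.43 to -2.83 for Il1b and from -0.55 to -0.17 for Casp1. After rescaling to equal sums without mitochondrially encoded genes, calls over all genes were 6893 higher and 2370 lower (74.4% higher) instead of 5012 and 3457 (59.2%), the caspase and pore list had 1 lower gene, and the signalling list had 5 higher and 7 lower. TMM and median-of-ratios scaling each moved the median log2 fold change by -0.11, and calls were then 4132 higher and 4138 lower, and 4081 higher and 4187 lower. The signalling list had 2 higher genes after quantile normalization and 2 after an equal-sum scaling, chosen after seeing the data, that also left out the mature neutrophil markers. The sign of the median of all tested genes turned under median-of-ratios scaling (-0.0022); the cause was not tested. Deviations of same-numbered libraries had r of 0.0219, -0.375 and -0.0647 for numbers 1, 2 and 3, against -0.307 to 0.396 for libraries of different numbers. With 3 libraries per group these values cannot decide whether the numbers pair the samples, and the labels do not say. With the replicate block 4856 genes were higher and 3374 lower. Il1a, Il18, Il36g, Mefv and P2rx7 are limited by depth, with under 100 estimated reads in each RUNX1-RARA library.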

Other observations

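Of 6 general haematopoietic markers, 5 were lower in RUNX1-RARA cells and 1 was higher, where 31.7% of tested genes were lower and 46% higher. Ptprc, which encodes the leukocyte phosphatase CD45, had 75.3 ± 5.63 FPKM in RUNX1-RARA and 156 ± 4.40 FPKM in empty vector libraries (SD, n = 3 each; log2 fold change -1.05, limma adjusted p = 1.40e-07), and the myeloid transcription factor gene Spi1 had 19.7 ± 2.57 FPKM in RUNX1-RARA and 68.8 ± 2.64 FPKM in empty vector libraries. Cd48, a surface ligand of leukocytes, was the exception, at 438 ± 19.0 FPKM in RUNX1-RARA and 43.0 ± 3.65 FPKM in empty vector libraries (log2 fold change 3.32, limma adjusted p = 3.63e-11). These genes were named after their values were seen.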
